A study of Mus musculus with 12 samples.

Results

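The immediate early genes described here are Egr1, Egr3, Fos, Fosb, Fosl1, Jun, Junb, Ier2, Ier3 and Atf3, 10 of the 26219 genes in the expression table. They were listed by gene name, but the list was drawn up with earlier results of these data known. They were followed in 12 libraries from 6 mouse lines grown as spermatogonial stem cells in culture, with 2 culture replicates per line. The lines named GSC_1 and GSC_2 were germline stem cells (GSCs) established from independent testes of mice at postnatal day 7. The 4 lines named GSCLC were germline stem cell-like cells (GSCLCs), obtained from cultured reconstituted testes. Testes for GSCLC_1 and GSCLC_4 were held at 34°C for 3 weeks (condition 1), and those for GSCLC_2 and GSCLC_3 at 37°C for 2 weeks and at 34°C for 1 week after that (condition 2). Every line has the strain background C57BL/6 x 129/SvJcl and the AcrAct_EGFP reporter, and every line was grown in the same StemPro-34 medium with 1% FBS, GDNF, bFGF, LIF and EGF. Whether a line is GSC or GSCLC coincides with its origin in a mouse or a reconstituted testis, so the 2 cannot be told apart, and a group holds only 2 to 4 lines.

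Immediate early genes are transcribed within minutes of a growth factor or stress signal, without new protein being made first, and most of their mRNAs are short-lived. Signals through the kinase ERK act on ELK1 and SRF bound at serum response elements, and other signals act on CREB at cAMP response elements (CREs). Many of the products are transcription factors themselves: EGR proteins are zinc finger factors, and FOS and JUN proteins pair to form AP-1. GDNF and bFGF, the factors that keep spermatogonial stem cells dividing in culture, signal through receptors that feed this pathway.

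The promoters of Fos and Junb are shown because they hold matches to the core of the CRE, the element through which CREB acts. RefSeq's promoter table (GRCm38.p6) had an entry for 6 of the 10 genes, namely Atf3, Fos, Fosb, Ier3, Jun and Junb. Each sequence gives the 250 bases before the start site, 5′ to 3′ along the gene, and capitals mark motif matches. The Fos window is chr12:85473640-85473889 on the plus strand and the Junb window chr8:84978749-84978998 on the minus strand.
Fos: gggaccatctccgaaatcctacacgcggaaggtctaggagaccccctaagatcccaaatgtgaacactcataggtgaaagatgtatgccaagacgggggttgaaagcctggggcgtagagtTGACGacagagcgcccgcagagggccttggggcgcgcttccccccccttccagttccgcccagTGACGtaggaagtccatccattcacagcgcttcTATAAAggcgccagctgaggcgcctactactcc
Junb: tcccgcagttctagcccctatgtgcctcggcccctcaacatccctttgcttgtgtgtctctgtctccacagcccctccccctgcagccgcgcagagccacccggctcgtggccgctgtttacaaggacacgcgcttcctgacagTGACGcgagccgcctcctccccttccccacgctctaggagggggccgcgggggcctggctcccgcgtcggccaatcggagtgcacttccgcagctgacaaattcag

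The CRE half-site TGACG, searched on both strands, was found in Fos at 129 to 125 and at 66 to 62 bases before the start, and at 106 to 102 bases before the start in Junb. It was also present in Fosb and Atf3, so that 4 of the 6 genes held it, and 17.8% of all 32851 promoters in the table did. A TATA motif (TATAAA) stood 33 to 28 bases before the Fos start and was present in 12.4% of promoters. The full CRE (TGACGTCA, in 1.55% of promoters), the AP-1 motif (TGANTCA, in 6.75%) and the serum response element by its CArG box (in 1.47%) had no match in these windows of the 6 genes. The EGR motif (GCGNGGGCG, in 4.7%) matched in Fosb alone among them. These matches describe letters in the window and say nothing on binding in these cells. Sequence further upstream or after the start was not searched. A motif without a match here, such as the serum response element, may therefore still lie near the gene.

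The unit is RPM, which scales the reads of a library to a fixed total, from 3′-end sequencing of RNA (SC3-seq), and values are compared within a gene only. Low RPM values lie on even steps that imply 3031465 to 4643820 counted reads per library, so 3 reads correspond to 0.646 to 0.99 RPM. Libraries of the same line correlated at 0.966 to 0.977 over genes. All 14 germ cell markers listed were detected in every library, among them the germ cell gene Dazl, which encodes a regulator of translation, at 1200.2 to 1559 RPM. Tests used log2(RPM + 1) and a filter of 5 RPM or more in 2 or more libraries, which 11788 genes and 7 of the 10 immediate early genes passed. Fosb, Fosl1 and Atf3 did not pass. A call is a Benjamini-Hochberg adjusted p under 0.05 from limma over all 11788 genes, and log2 changes carry their SE.

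**Figure D1:**
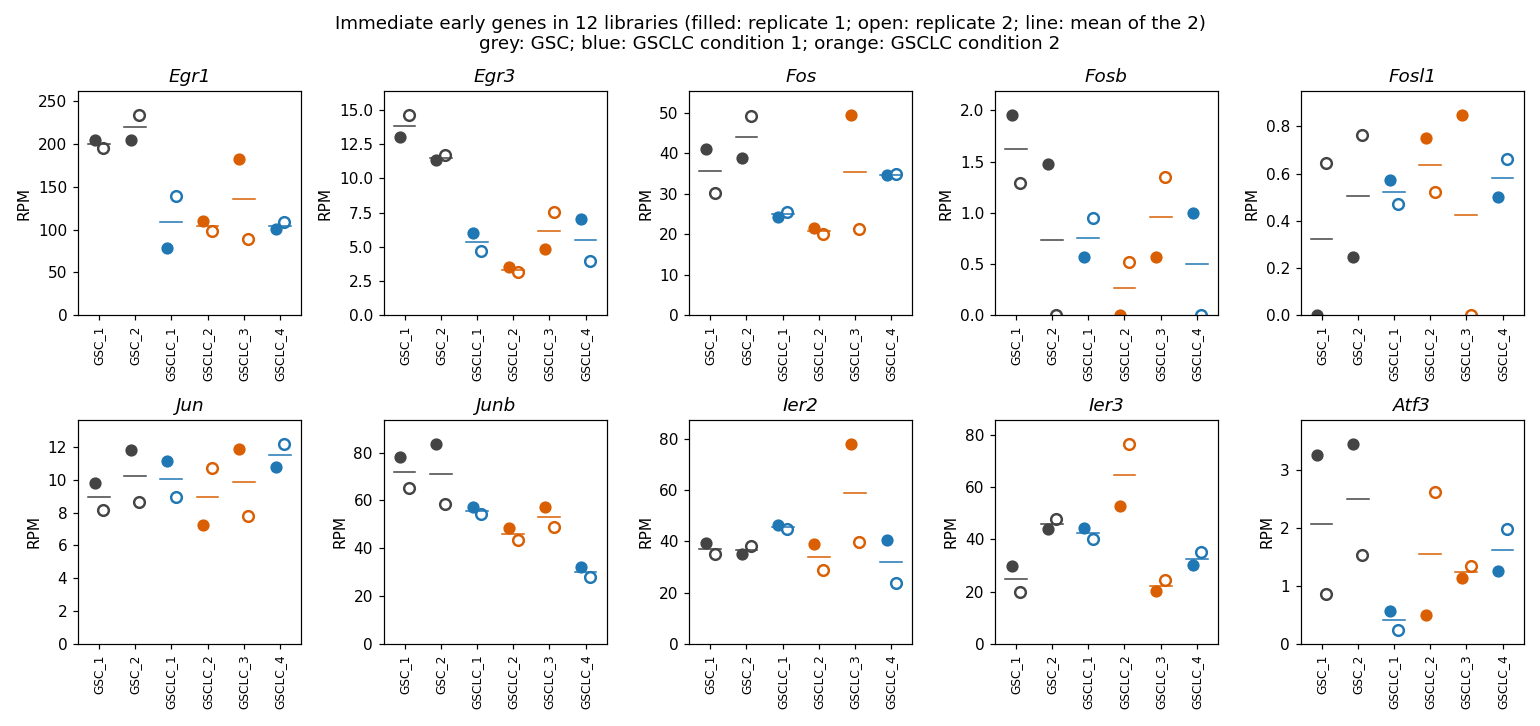
RPM of the 10 immediate early genes (y axis, from 0, own scale per gene) in the 6 lines (x axis), with replicate 1 filled, replicate 2 open and a line at their mean. The 8 GSCLC libraries sit below the 4 GSC libraries for Egr1, Egr3 and Junb, and replicate 1 of GSCLC_3 is the highest library for Fos and Ier2.

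Between GSC and GSCLC lines, 1 of the 7 tested genes, Egr1, was lower in GSCLC lines at the threshold, and none was higher. Over all tested genes 1.81% were called lower and 1.21% higher. For Egr1, Egr3 and Junb all 8 GSCLC libraries lay below all 4 GSC libraries, an arrangement found in 3.85% of tested genes. Fos, Jun, Ier2 and Ier3 overlapped between the groups. In bulk RNA, fewer expressing cells and less RNA per cell cannot be told apart.

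Egr1, a zinc finger transcription factor induced by mitogens, lies on chromosome 18 from 34859823 to 34864984 (GRCm38, plus strand). GSC_1 had 205 and 196 RPM in replicates 1 and 2, and GSC_2 had 205 and 234 RPM. The GSCLC lines had 78.2 and 139 RPM (GSCLC_1), 109.6 and 98.6 RPM (GSCLC_2), 183 and 89.2 RPM (GSCLC_3) and 100.4 and 109 RPM (GSCLC_4). The groups did not overlap, although replicate 1 of GSCLC_3 came near the GSC libraries. Means over lines were 209.8 ± 13.7 RPM in GSC lines (SD, n = 2) and 113 ± 15.3 RPM in GSCLC lines (SD, n = 4). Egr1 was 1.90-fold lower in GSCLC lines, a log2 change of -0.93 ± 0.13 (limma, adjusted p = 0.00458). The call was lost when either GSC line was left out, which leaves 1 line that is assumed to vary like the others (adjusted p = 0.0696 without GSC_1 and 0.138 without GSC_2), and without replicate 2 of GSCLC_3 (0.0919). It was lost with replicate 1 libraries alone (limma, adjusted p = 0.171) and held with replicate 2 libraries alone (0.0165).

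Egr3, a related zinc finger factor (chromosome 14, 70077203 to 70082614, plus strand), was sparsely read, with 12 to 68 implied reads per library. Its levels were 13.0 and 14.6 RPM in GSC_1 and 11.3 and 11.7 RPM in GSC_2. They were 5.99 and 4.73 RPM in GSCLC_1, 3.51 and 3.13 RPM in GSCLC_2, 4.81 and 7.55 RPM in GSCLC_3 and 7.01 and 3.96 RPM in GSCLC_4. Every GSC library was above every GSCLC library. The log2 change of -1.21 ± 0.30 missed the threshold (limma, adjusted p = 0.0533). It passed in 5 of 28 alternatives, among them leaving out GSCLC_3 (adjusted p = 0.0348), with a range of 0.0159 to 0.392 over all 28.

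Fos, the classic AP-1 partner of JUN proteins, lies on chromosome 12 from 85473890 to 85477273 (plus strand), directly after the promoter printed above. Its levels were 41.1 and 30.1 RPM in GSC_1 and 38.9 and 49.2 RPM in GSC_2. Among GSCLC lines it had 24.3 and 25.5 RPM in GSCLC_1, 21.6 and 20.1 RPM in GSCLC_2, 49.5 and 21.3 RPM in GSCLC_3, and 34.6 and 35.0 RPM in GSCLC_4. GSCLC_1 and GSCLC_2 lay below all GSC libraries, while the first library of GSCLC_3 was the highest of all 12. The log2 change between the groups was -0.49 ± 0.22 and did not pass (limma, adjusted p = 0.296).

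Fosb and Fosl1 (also called Fra-1), the other FOS family members, were near the limit of detection. Fosb (chromosome 7, 19302696 to 19310051, minus strand) ranged from 0 to 1.96 RPM and was at 0 in 3 libraries. Fosl1 (chromosome 19, 5447547 to 5455946, plus strand) had at most 3 implied reads in every library, and 0.848 RPM at the most. The last 500 bases of Fosl1 overlap Ccdc85b on the opposite strand and share sequence with it, so these reads cannot be assigned with certainty. At these levels no difference between groups or replicates was detectable for Fosl1.

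Jun, the AP-1 partner of FOS (chromosome 4, 95049034 to 95052222, minus strand), was low and even. It had 9.78 and 8.18 RPM in GSC_1 and 11.8 and 8.67 RPM in GSC_2. GSCLC libraries ranged from 7.27 to 12.2 RPM with a median of 10.7 RPM, on both sides of the GSC libraries. The log2 change was 0.06 ± 0.24 (limma, adjusted p = 0.934).

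Junb, a JUN family member (chromosome 8, 84974484 to 84978718, minus strand), was at 78.2 and 65.2 RPM in GSC_1 and at 83.7 and 58.4 RPM in GSC_2. In GSCLC lines it was at 57.1 and 54.4 RPM (GSCLC_1), 48.4 and 43.6 RPM (GSCLC_2), 57.1 and 49.1 RPM (GSCLC_3) and 32.3 and 28.0 RPM (GSCLC_4). The groups did not overlap, but the lowest GSC library was only just above the highest GSCLC libraries. The log2 change was -0.64 ± 0.22 and did not pass (limma, adjusted p = 0.161), nor in any of 29 alternatives. The last 500 bases of Junb overlap exons of Prdx2, a peroxiredoxin on the opposite strand at 239 to 359.6 RPM, and use of strand in counting is not stated in the sources used here.

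Ier2 and Ier3 encode early response proteins outside the EGR and AP-1 families. Ier2 (chromosome 8, 84661331 to 84662852, minus strand) had 39.1 and 34.9 RPM in GSC_1, 35.2 and 38.02 RPM in GSC_2, 46.2 and 44.7 RPM in GSCLC_1 and 38.9 and 28.7 RPM in GSCLC_2. In GSCLC_3 it had 78.0 and 39.6 RPM and in GSCLC_4 40.3 and 23.7 RPM. GSCLC libraries thus lay on both sides of the GSC libraries, with a log2 change of 0.13 ± 0.23 (limma, adjusted p = 0.823).

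Ier3 is known for a role in cell survival (chromosome 17, 35821684 to 35822923, plus strand). It ordered the lines differently from the other genes, whose orders also differed from each other. It had 29.7 and 20.0 RPM in GSC_1 and 43.8 and 47.7 RPM in GSC_2, so that the GSC lines themselves did not overlap. GSCLC_2 was highest at 52.7 and 76.7 RPM and GSCLC_3 lowest at 20.1 and 24.5 RPM, although both came from condition 2. GSCLC_1 had 44.5 and 40.2 RPM and GSCLC_4 30.1 and 35.3 RPM. The log2 change between GSCLC and GSC lines was 0.16 ± 0.35 (limma, adjusted p = 0.864).

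Atf3, a stress-induced factor of the ATF and CREB family (chromosome 1, 191170296 to 191218039, minus strand), was low throughout, at 0.236 to 3.45 RPM. Its 2 highest libraries were replicate 1 of GSC_2 at 3.45 RPM and of GSC_1 at 3.26 RPM, against 1.53 and 0.861 RPM in replicate 2 of these lines. In GSCLC_2 the order was the opposite, at 0.501 and 2.61 RPM. All rest on 14 or fewer implied reads.

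**Figure D2:**
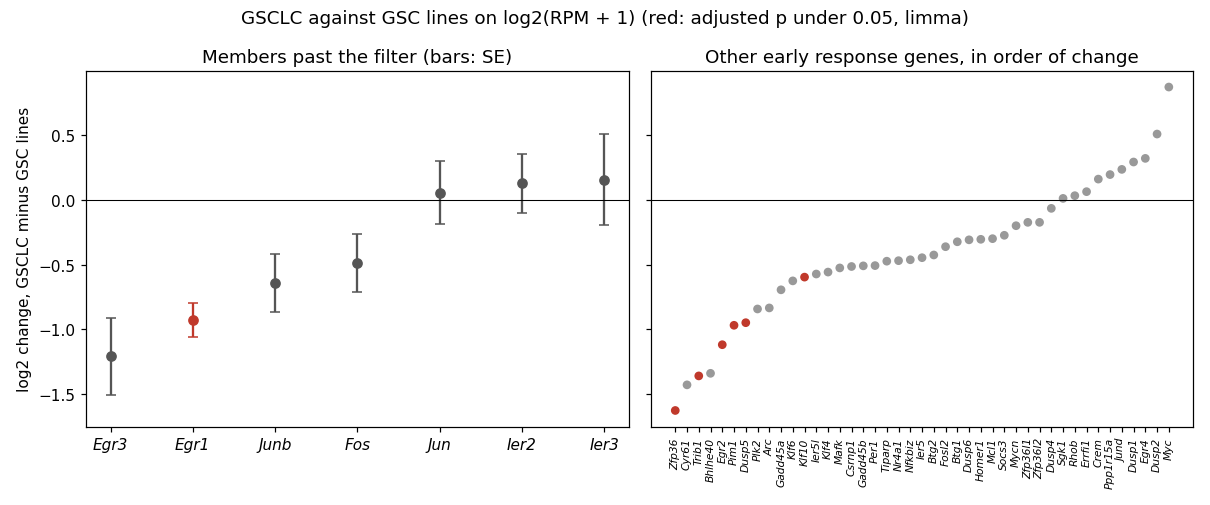
Log2 change of GSCLC minus GSC lines on log2(RPM + 1) (y axis) for the 7 tested immediate early genes with SE bars (left) and for 43 other early response genes in order of change (right), red where the limma adjusted p is under 0.05. Egr1 is the called gene on the left, and 33 of the 43 genes on the right lie below 0.

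Conditions 1 and 2 were compared as 2 lines against 2, and called no gene (0% of 11788, with 552 genes at an unadjusted p under 0.05). Log2 changes of the 7 tested genes ran from -0.20 ± 0.36 for Egr3 to 0.26 ± 0.26 for Junb, with limma adjusted p of 0.933 or more. For Ier3 the 2 lines of condition 2 were the extremes of the series, and its log2 change was 0.02 ± 0.43.

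Among all 6 lines, with the 2 libraries of each as replicates, Ier3, Junb, Egr1 and Egr3 differed at the threshold, 4 of 7, against 20.0% of all tested genes (2362). Ier3 had an F of 11.3 (limma, adjusted p = 0.00096) and Junb an F of 9.98 (0.00179), and both passed in 20 of 20 alternatives. Egr1 (F = 7.55, adjusted p = 0.00586) lost its call without the filter and without the mean-variance trend (0.113), and Egr3 (F = 6.59, 0.0104) without the filter (0.0582). Fos (F = 3.33, adjusted p = 0.0852), Ier2 (F = 2.39, 0.175) and Jun (F = 0.28, 0.934) did not pass. Fos passed when either library of GSCLC_3 was left out (limma, adjusted p = 0.00918 without replicate 2), and Ier2 without replicate 2 of that line (0.0355). The spread behind these tests is that between 2 cultures of each line.

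The order of the lines by mean RPM differed between genes. Egr1 ran GSC_2 (219.5 ± 20.5, SD, n = 2), GSC_1 (200.1 ± 6.50), GSCLC_3 (136 ± 66.2), GSCLC_1 (109 ± 43.2), GSCLC_4 (105 ± 5.94) and GSCLC_2 (104 ± 7.75), and the replicates of neighbouring GSCLC lines overlapped at every step. Junb began with GSC_1 (71.7 ± 9.18) and GSC_2 (71.1 ± 17.9), which overlapped, and ended with GSCLC_4 (30.2 ± 3.02), which lay apart from its neighbour GSCLC_2 (46.0 ± 3.41). Fos ended with GSCLC_1 (24.9 ± 0.904) and GSCLC_2 (20.8 ± 1.04), whose replicates did not overlap. Ier3 began with GSCLC_2 (64.7 ± 17.0), apart from GSC_2 (45.8 ± 2.76), and ended with GSC_1 (24.8 ± 6.81) and GSCLC_3 (22.3 ± 3.15), which overlapped. For Jun all neighbours overlapped. Across the 12 libraries Egr1 correlated with Fos (r = 0.758), Egr3 (0.654) and Junb (0.64), and Ier3 ran against Ier2 (-0.44), as a description over libraries that share lines.

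Replicates of one line differed most in GSCLC_3. There the median absolute log2 difference of the 7 genes was 0.56, against 0.25 for all tested genes. In the other 5 lines it was 0.14 to 0.23, against 0.21 to 0.28 for all tested genes. Of 42 pairs of replicates, 2 were at least 2-fold apart, both in GSCLC_3: Egr1 was 2.05-fold and Fos 2.32-fold lower in replicate 2. Ier2 came next at 1.97-fold. In this line 5.86% of tested genes were 2-fold apart and 3.65% were lower by that much in replicate 2. The share of genes 2-fold apart was 4.45% in GSC_1, 2.94% in GSC_2, 2.95% in GSCLC_1, 3.43% in GSCLC_2 and 4.9% in GSCLC_4, with none of the 7 genes among them.

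**Figure D3:**
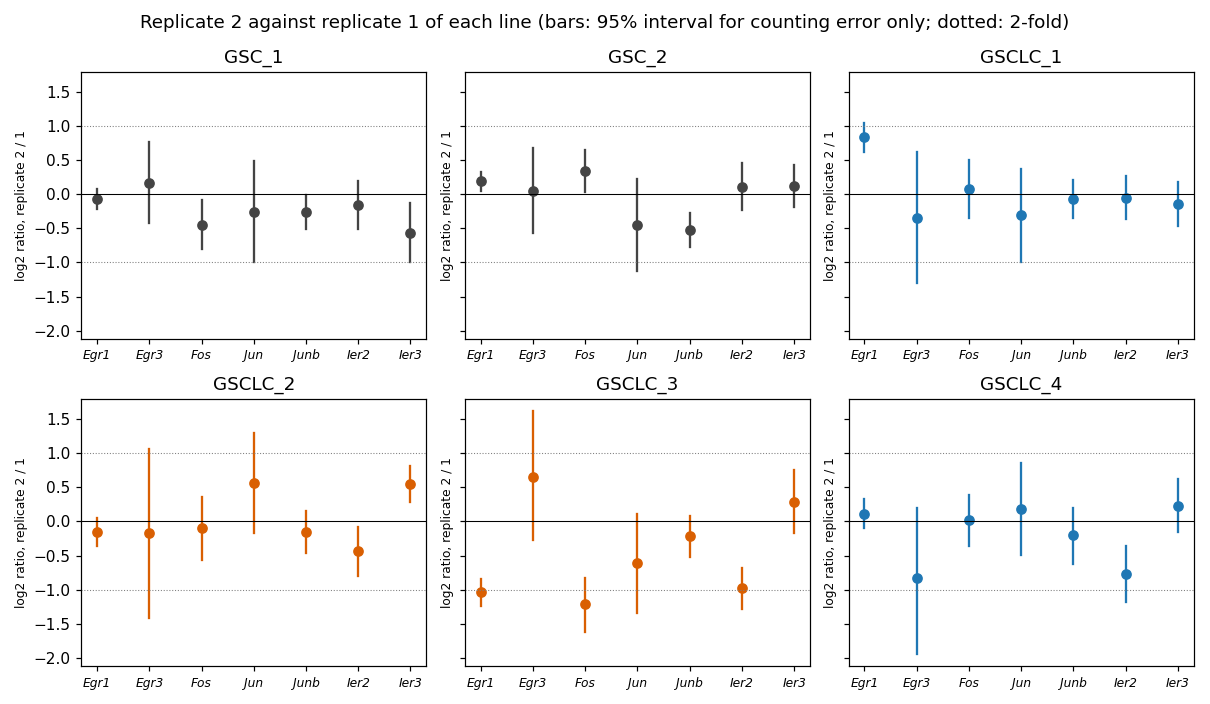
Log2 ratio of replicate 2 to replicate 1 (y axis) for 7 immediate early genes (x axis) in each line, with 95% intervals for counting error and dotted lines at 2-fold. Egr1, Fos and Ier2 are low in GSCLC_3 with log2 ratios of -1.04, -1.22 and -0.98, and Egr1 is high in GSCLC_1 at 0.83.

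Counting error alone is smaller than several of these differences. The exact 95% interval of the log2 ratio of reads ran from -1.23 to -0.84 for Egr1 (647 and 331 reads), from -1.62 to -0.83 for Fos (175 and 79 reads) and from -1.28 to -0.68 for Ier2 (276 and 147 reads) in GSCLC_3. In the same line Junb (-0.22) and Ier3 (0.29) had intervals that held 0, and Egr3 leaned the other way (0.65, -0.27 to 1.61). Egr1 moved the opposite way in GSCLC_1, where replicate 2 was 1.78-fold higher (274 and 589 reads, log2 0.62 to 1.05), while Fos and Ier2 there had intervals that held 0. In all, 13 of 42 intervals excluded 0. They compare single libraries and cover counting error only, since amplified reads are not independent molecules.

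Ier2 was also lower in replicate 2 in GSCLC_4 (1.70-fold) and GSCLC_2 (1.35-fold). Junb was lower in replicate 2 in 6 of 6 lines, as 2.32% of tested genes were, with a log2 change of -0.23 ± 0.10 within lines (limma, adjusted p = 0.778). Ier2 changed by -0.37 ± 0.14 (adjusted p = 0.778). Replicate 2 against replicate 1 called no gene (0% of 11788, with 751 at an unadjusted p under 0.05).

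Within lines the log2 SD was 0.39 for Egr1, 0.38 for Fos, 0.38 for Ier2, 0.28 for Egr3, 0.27 for Jun, 0.25 for Ier3 and 0.19 for Junb. The median over all tested genes was 0.24. Counting alone would give 0.07 for Egr1 and 0.14 for Fos, but 0.31 for Egr3 and 0.24 for Jun, so the spread of those 2 low genes was about that of counting. Between line means the SD was 0.67 for Egr3, 0.56 for Ier3, 0.49 for Egr1 and 0.45 for Junb. It was 0.37 for Fos, 0.305 for Ier2 and 0.13 for Jun.

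Other early response genes were compared between GSC and GSCLC lines in the same fit. Of 52 listed, 43 were tested, and 6 were lower and 0 higher in GSCLC lines, against 1.81% and 1.21% of all tested genes. Their median log2 change was -0.45, with 33 of 43 below 0, and the median over all genes was -0.01. The count was 6 without GSCLC_3, but 2 with replicate 1 or replicate 2 libraries alone, 1 without GSC_1 and 0 without GSC_2.

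Zfp36, an RNA-binding protein that speeds decay of short-lived mRNAs, fell the most of the 6. It had 40.3 to 58.7 RPM in GSC libraries and 11.9 to 17.3 RPM in GSCLC libraries, a log2 change of -1.63 ± 0.19 (limma, adjusted p = 0.00147). Egr2, another EGR factor, went from 132 ± 9.98 RPM (SD, n = 2) to 61.9 ± 7.44 RPM (SD, n = 4), with a log2 change of -1.12 ± 0.15 (adjusted p = 0.00417). Trib1, a pseudokinase, changed by -1.36 ± 0.24 (0.0124) and the kinase Pim1 by -0.97 ± 0.17 (0.0132). Dusp5, a phosphatase that acts on nuclear ERK, changed by -0.95 ± 0.22 (limma, adjusted p = 0.0435) and the repressor Klf10 by -0.60 ± 0.14 (0.0436). The calls for Dusp5 and Klf10 were the least stable, passing in 12 and 13 of 29 alternatives, while that for Zfp36 passed in 28.

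Egr4 did not follow the other EGR genes. It differed among lines (limma F test, adjusted p = 2.73e-05), with 227 to 296 RPM in GSC_1, GSC_2, GSCLC_1 and GSCLC_3, 567 and 502 RPM in GSCLC_2 and 467 and 369.8 RPM in GSCLC_4. Among lines 16 of the 43 genes passed, against 20.0% of all genes.

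The replicates of GSCLC_3 parted for other early response genes too. In replicate 2, 7 of the 43 (16.3%) were at least 2-fold lower, against 3.65% of all tested genes, and 0 were 2-fold higher. The median log2 difference was -0.21, against -0.05 for all genes. The 7 genes were Egr2, Nr4a1, Myc, Dusp2, Dusp4, Dusp6 and Bhlhe40, named after their values were seen. Egr2 went from 83.7 to 31.8 RPM, and the nuclear receptor gene Nr4a1 from 44.7 to 18.1 RPM. Dusp6, a phosphatase that acts on ERK, went from 335 to 153 RPM and Dusp4 from 89.3 to 36.1 RPM. Nr4a1, Dusp2 and Dusp6 in replicate 1, and Dusp4 in both replicates, were above all 10 libraries of the other lines. Egr2 was below all 10 in replicate 2, and Bhlhe40 in both replicates. In the other 5 lines 0 to 3 of the 43 were lower by 2-fold in replicate 2.

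**Figure D4:**
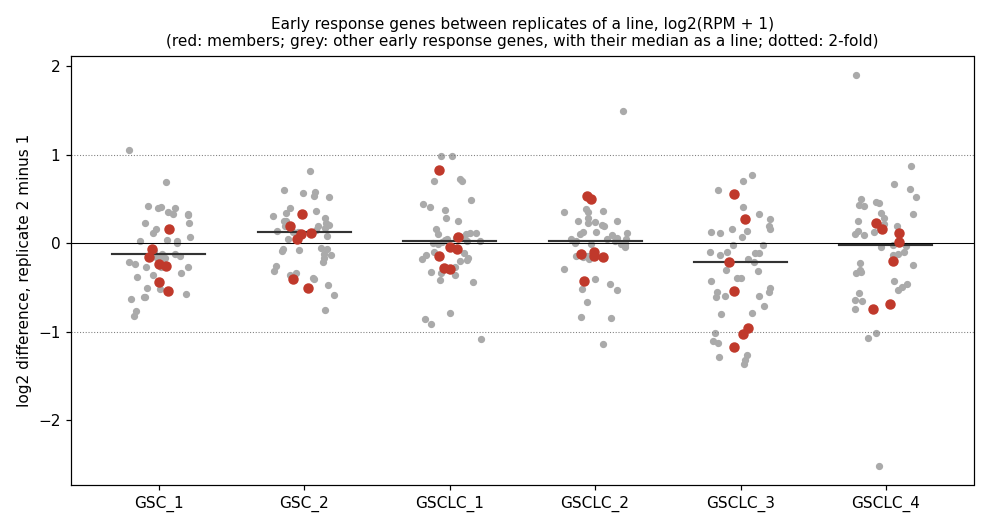
Log2 difference of replicate 2 minus replicate 1 on log2(RPM + 1) (y axis) in each line (x axis), red for 7 immediate early genes and grey for 43 other early response genes, with the median of the grey points as a line. GSCLC_3 has the lowest median, at -0.21, and 7 grey points at or below a 2-fold drop.

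The upstream regulators were read in the same way. Of 20 tested genes for SRF, its partners and the ERK cascade, 0 passed in either direction between GSC and GSCLC lines, and their median log2 change was -0.05. Nab1, a corepressor of EGR factors, differed among lines (limma F test, adjusted p = 0.0189), with 57.4 to 73.0 RPM in GSC libraries and 124 and 104 RPM in GSCLC_4. Of 9 JNK and p38 kinase genes 2 were lower in GSCLC lines, against 1.81% of all tested genes. Mapk11, a p38 kinase, had a log2 change of -1.06 ± 0.19 (limma, adjusted p = 0.0147), and Mapk10, a JNK, one of -2.78 ± 0.67 (0.048). The Mapk10 call passed in 9 of 29 alternatives. None of the 9 genes passed with replicate 1 libraries alone or without replicate 2 of GSCLC_4. The median log2 change of the 9 genes was -0.12. It was -0.14 without GSC_1 and -0.16 without GSC_2, fits that each leave a single GSC line. Of 11 genes of the ATF4 stress response, 0 passed between GSC and GSCLC lines, with a median of 0.17, 7 above 0 and 4 below. Summed over the 13 listed genes, the level was higher in every GSCLC library (989 to 1195 RPM) than in any GSC library (757 to 885 RPM). Such a sum is weighted to the genes with the most reads. Among lines 3 of the 11 differed, against 20.0% of all tested genes. They were Phgdh (limma F test, adjusted p = 4e-05), Asns (0.00382) and Chac1 (0.045). The Chac1 call passed in 8 of 19 alternatives.

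Markers of somatic cells are given beside these results. Over all tested genes 1.81% were lower and 1.21% higher in GSCLC lines. That share is no measure for genes that passed the filter only through GSC libraries. Summed RPM of 17 fibroblast and stromal markers was 582 to 1199 in GSC and 476 to 791 in GSCLC libraries. Of the 16 tested, 2 were lower, 1 (Twist1) was higher and 13 did not pass. Their median log2 change was -0.69, with 15 of 16 below 0. Among lines 13 of the 16 differed, against 20.0% of all tested genes. For 16 Sertoli and Leydig markers the sum was 48.0 to 256 and 30.2 to 61.6, with the high values in replicate 1 of GSC_1 (171) and GSC_2 (256), while replicate 2 of these lines (48.7 and 48.0) lay within the GSCLC range. Of these, 6 were tested and 3 (Clu, Cyp11a1 and Hsd3b1) were lower, with 4 changes below 0 and 2 above. Wt1 differed among lines (limma F test, adjusted p = 5.64e-05), as 20.0% of all tested genes did. It had 1.3 to 5.2 RPM in GSC libraries, 29.8 and 20.1 RPM in GSCLC_2 and 10.8 and 17.2 RPM in GSCLC_4. In GSCLC_1 it had 7.7 and 6.1 RPM and in GSCLC_3 4.8 and 3.0 RPM. Amh, Cyp17a1 and Lhcgr were at 0 in all 12 libraries. Cyp11a1 (36.2 and 60.1 RPM) and Hsd3b1 (34.2 and 36.7 RPM) passed the filter only through replicate 1 of GSC_1 and GSC_2. A call for these genes could hardly be other than lower in GSCLC lines. For 9 immune and endothelial markers the sum was 25.8 to 37.0 and 10.8 to 24.6, and 1 of 4 tested, Fcer1g, was lower. Fcer1g also passed the filter only through GSC libraries. Between replicates, the immune and endothelial sum in GSCLC_3 was 24.6 in replicate 1 and 10.8 in replicate 2, and the fibroblast sum 557 and 750.4. In GSCLC_1, where Egr1 was higher in replicate 2, 14 of 16 fibroblast markers were higher there too, with a median log2 difference of 0.69 against 0.001 for all genes and 5 past 2-fold. In GSCLC_2, where the interval for Egr1 held 0, the same median was 0.68, also with 5 past 2-fold. It was 0.25 in GSCLC_3 and 0.37 in GSCLC_4. The part of these cells in the levels of the immediate early genes was not tested.

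Genes most like Egr1 over the 12 libraries, among 7383 with a mean of at least 20 RPM, were Procr (r = 0.942), Fkbp1a (0.939), Phldb1 (0.934) and Tmem9b (0.93). For Fos they were Tram1 (0.924), Npdc1 (0.9), Crlf3 (0.899) and 4833439L19Rik (0.881), and for Jun Zfp385b (0.864), Fam64a (0.827), Zfp511 (0.81) and Arf1 (0.8). The mean profile of the 7 genes was closest to Phldb1 (0.925), Ppdpf (0.902), Myo18a (0.881), Arhgef25 (0.881), Abr (0.877) and Fst (0.872). Libraries of one line are not independent points.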

How the data were processed

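RNA of 12 libraries was made into SC3-seq libraries from 1 ng of total RNA each and sequenced on a SOLiD 5500XL, per the labels' protocols. The authors deposited one table of RPM. The submitters' processing notes name the build mm10 (GRCm38) and 3 tools, Cufflinks 2.2.0, TopHat 1.4.1 and cutadapt 1.3. Settings and use of strand in counting are not stated in the sources used here. Replicates are biological replicates of the culture, per the labels.

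Values were taken as log2(RPM + 1), which understates changes of low genes. The 2 libraries of a line were averaged, and 4 GSCLC lines were compared with 2 GSC lines by limma 3.58.1 (R 4.3.3) with a mean-variance trend and Benjamini-Hochberg adjustment over 11788 genes. Conditions were compared in a fit sharing the GSC lines' spread, lines by an F test, and replicates with line as a block. Tests of log2 changes are two-sided. The fits were also run on simulated data with less spread between lines than within them. For Ier3 (SD of 0.56 between and 0.25 within lines), Junb (0.45 and 0.19), Egr3 (0.67 and 0.28) and Egr1 (0.49 and 0.39) the reverse held. That run therefore does not show how the tests perform at such a spread.

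Between 99.42% and 99.58% of values were whole multiples, within 0.1, of a library's step. All 120 of 120 values of the immediate early genes were. The implied reads served only for exact intervals, with no count test.

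The genes and lists were chosen with earlier results of these data known. All 10 genes are named. From other lists, genes past the threshold are named, at most 6 per list and comparison by smallest p. Gene positions are from GENCODE M21. Results for some genes of the other lists are not reported here.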

Additional observations from a re-analysis of the deposited data

Results flagged for a closer look

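Of 30 groups of line means or libraries, 3 held a value far from the rest, and chance alone gives about 1 in 20. All 3 concern GSCLC_3. The mean of Egr1 in GSCLC_3 (136 RPM) stood above the other 3 GSCLC lines, the nearest being 109 RPM, and it averages replicates at 183 and 89.2 RPM. Ier2 in replicate 1 of GSCLC_3 (78.0 RPM) stood above the other GSCLC libraries, the next being 46.2 RPM. Fosl1 was at 0 RPM in replicate 2 of GSCLC_3, with the next GSCLC library at 0.473 RPM, which is 2 implied reads.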

How the results depend on the processing

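Between GSC and GSCLC lines 356 genes were called. The count was 105 with replicate 1 and 179 with replicate 2 libraries alone (both chosen after seeing the data), 212 with a filter of 20 RPM, 142 with none, 212 without GSCLC_1, 218 without GSCLC_2, 536 without GSCLC_3, 42 without GSC_1 and 12 without GSC_2. Leaving out each library in turn gave 200 to 403. With 12 libraries and line as a random effect it was 645, and 592 with the replicate block added. Differences between replicates were little correlated between lines over all tested genes (r of -0.12 to 0.11 over 15 pairs of lines). These correlations do not exclude a pattern shared by few genes. On the log2(RPM + 1) scale, Clu, Cyp11a1 and Hsd3b1 were at least 2-fold lower in replicate 2 of both GSC lines. In GSCLC libraries Hsd3b1 was at 0 throughout and Cyp11a1 at 0.751 RPM at the most. Neither could therefore drop 2-fold there on that scale. Clu went from 23.2 to 11.6 RPM in GSCLC_3 and from 24.3 to 14.2 RPM in GSCLC_4. It rose from 9.99 to 15.4 RPM in GSCLC_1 and from 7.02 to 7.83 RPM in GSCLC_2. Conditions gave 1 call with replicate 2 alone, 1 without GSCLC_1, 11 without GSCLC_2 and 1 without GSCLC_3. The F test among lines gave 1181 calls without a filter and 1334 without the trend, and replicates gave 2 without GSCLC_3. The median share of genes past 2-fold between replicates, 3.94%, was 15% at 1.5-fold and 0.649% with a pseudocount of 5. The causes were not tested.

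Signs turned only for log2 changes that passed no threshold. Between GSC and GSCLC lines, Jun was at -0.024 without GSC_1, -0.005 without GSCLC_4, -0.082 with replicate 1 alone and -0.044 to 0.158 without single libraries. Ier2 was at -0.025 without GSCLC_3 and -0.13 with replicate 2 alone. Ier3 was at -0.28 without GSC_1, -0.092 without GSCLC_2 and -0.06 with replicate 1 alone. Between conditions, Egr1 was at -0.007 without GSCLC_3, -0.39 with replicate 2 alone and -0.12 to 0.40 without single libraries. Egr3 was at 0.16 without GSCLC_2 and 0.16 with replicate 2 alone. Fos was at 0.14 without GSCLC_2, 0.064 without GSCLC_4, 0.17 with replicate 1 alone and -0.46 to 0.13 without single libraries. Junb was at -0.17 without GSCLC_4. Ier2 was at -0.16 without GSCLC_3, -0.073 without GSCLC_4 and -0.044 to 0.436 without single libraries. Ier3 was at -0.72 without GSCLC_2, -0.16 without GSCLC_4, -0.16 with replicate 1 alone and -0.11 to 0.16 without single libraries. Between replicates, Egr1 was at 0.006 with median-of-ratios scaling, 0.007 without GSCLC_2 and 0.18 without GSCLC_3, Egr3 at 0.069 without GSCLC_4 and Ier3 at -0.013 without GSCLC_2.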
